A study of Sus scrofa with 18 samples.

Results

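The RNA of coagulation and fibrinolysis genes was followed in the serum of pigs before and during cardiogenic shock (CS). A list of 35 gene names was searched in the deposited table of 31908 genes, and 34 of them had a row whose symbol equalled the name. These were 8 clotting factors of the initiation step and the cascade, 3 genes of the contact system, 5 genes of fibrinogen and its crosslinking, 9 inhibitors with the protein C pathway, 6 genes of fibrinolysis, the VWF-cleaving protease gene ADAMTS13 and 2 protease-activated receptors. VWF itself has a row in which the symbol is written more than once, so it did not match the name exactly. Its values are given beside those of ADAMTS13 and it is left out of all counts.

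Serum of 6 female Danish Landrace pigs, 5 months old according to the labels, was sampled from venous blood at 3 time points. Baseline preceded the injury. CS was induced by microsphere particles injected into the left main coronary artery, and the pVAD time point followed while an Impella CP percutaneous ventricular assist device (pVAD) unloaded the left ventricle with the shock still present. Each animal passed through the time points in this order and no animal without shock was sampled, so shock cannot be told apart from time in the experiment, nor pVAD support from longer shock. CS replicate 6, with 2484066 reads against 18229243 to 71488943 in the others, was omitted by the authors for its low depth and is left out, which leaves 6 Baseline, 5 CS and 6 pVAD libraries. Libraries are named by time point and replicate number, and the deposited sample sheet gives replicates 1 to 6 as pigs 3, 10, 12, 8, 4 and 6.

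Clotting starts when tissue factor (F3) on cells outside the bloodstream meets factor VII and activates factor X, and it is amplified through factors XI, IX, VIII and V until prothrombin (F2) is cleaved to thrombin, which turns fibrinogen into fibrin. Antithrombin, tissue factor pathway inhibitor and the protein C pathway restrain this cascade, and plasmin dissolves the fibrin once plasminogen has been cleaved by tissue-type or urokinase-type plasminogen activator. Most of these proteins are made by hepatocytes, while VWF, thrombomodulin and tissue-type plasminogen activator are known as products of the vessel wall, and factor V, the factor XIII A subunit and VWF are also stored in platelets. The reads in serum are taken here as RNA outside cells or left in the supernatant after centrifugation, not as the amount of circulating protein. The paper holds that most mRNA in serum likely comes from degrading cells of unknown origin.

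Of the 34 genes, 30 had at least 5 reads in total and were tested. Each of these 30 was read in all 17 libraries, with between 10 reads (SERPINF2 in pVAD 6) and 5398 reads (F5 in CS 1) for a gene in a library. Together they took 0.0125% to 0.0540% of the reads of a library. Levels are given as counts per 1000000 reads (CPM), in which the library total is scaled by a trimmed mean of M-values (TMM) factor that corrects for a few very abundant RNAs. These factors ran from 0.307 in CS 4, where 4 genes took 71.5% of all reads, and 0.454 in pVAD 6, where 4 genes took 57.6%, to 1.55. A count of 3 reads corresponded to 0.0496 to 0.198 CPM, depending on the library, and counting error alone is covered by this limit. FGA and FGB, which encode the alpha and beta chains of fibrinogen, SERPIND1 (heparin cofactor II) and TFPI2, an inhibitor related to TFPI, were listed at 0 in every library. Widely expressed genes, such as CCT2 and NDUFA9, were also listed at 0, as were 5555 of all rows.

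Marker genes of possible source cells were read at every time point. Of 15 hepatocyte markers, 12 had reads and their summed level was 79.5 to 113 CPM at Baseline, 89.4 to 116 CPM in CS and 92.1 to 115 CPM under pVAD support, with SERPINA1 listed at 0. Of 13 endothelial markers, 11 had reads, at 306 to 385, 246 to 383 and 292 to 366 CPM, with EGFL7 listed at 0. Of 14 platelet markers, 10 had reads, at 108 to 138, 88.2 to 154 and 86.7 to 264 CPM, with GP1BB and CLEC1B listed at 0 and the highest value in pVAD 6. Of 9 red cell markers, 5 had reads, at 285 to 828, 333 to 766 and 176 to 762 CPM, with HBM and ALAS2 listed at 0. Of 10 T and NK cell markers, 7 had reads, with CD3G and PRF1 listed at 0. They summed to 529 CPM in CS 4 and to 57.5 to 82.7 CPM in the other CS libraries. At Baseline and under pVAD support they summed to 55.9 to 174 CPM. The part of these sources in the levels below was not tested, and in serum fewer cells of a type and less RNA per cell cannot be told apart.

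To set genes side by side, reads were divided by the length of the gene span in RefSeq, introns included. Reads per kb of span are therefore no measure of RNA level between genes. The parts of spliced RNA, unspliced RNA and DNA in the reads were not tested. The genome build used by the authors is not given in the sources used here, but positions in their annotation overlapped the Sscrofa11.1 gene of the same identifier for 1467 of 1468 genes compared. Over 16289 protein-coding genes, reads summed over the 17 libraries followed the gene span with a Spearman coefficient of 0.81, and over the 30 genes tested it was 0.65; both are descriptions across genes, which share libraries and depth and are no independent replicates. The 30 genes lay between 53.6 reads per kb (TFPI) and 1263 reads per kb (FGG), with a median of 265 against 262 for all protein-coding genes. All but 2 of them, TFPI below and FGG above, were inside the range of 68.6 to 944 reads per kb that holds the 5th to 95th percentile of all genes. F5 and F13A1 had the most reads, 47009 and 48069, and lay at 576 and 322 reads per kb. Another RefSeq gene overlapped the span of 10 of the 29 genes placed on a chromosome, F5, F13A1, PLG and ADAMTS13 among them, and since the strand setting of the counting is not given, reads of such partners may not be told apart.

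**Figure D1:**
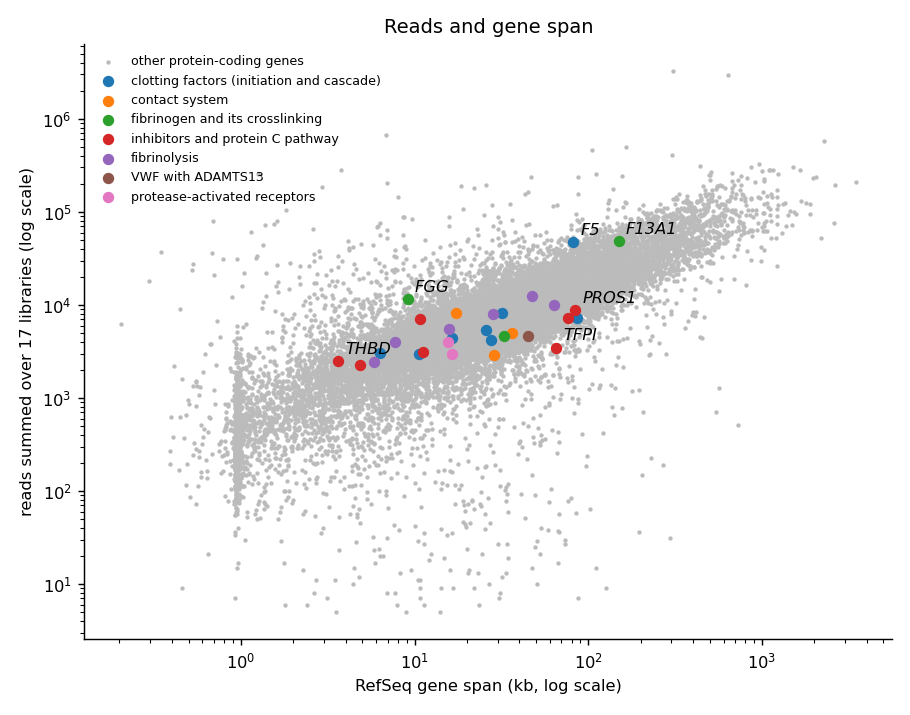
Reads summed over the 17 libraries (vertical, log scale) against the RefSeq gene span in kb (horizontal, log scale), with 1 point per protein-coding gene; colored points are the 30 genes tested, by role, and gray points all others. The colored points lie within the gray band, from 53.6 reads per kb for TFPI to 1263 reads per kb for FGG.

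The question for each comparison was whether these RNAs changed with the onset of CS and again under pVAD support. The thresholds and the pooling of time points in a single fit followed the study. A gene was called changed when its unadjusted p was below 0.05 and its fold change exceeded 1.5 in edgeR's quasi-likelihood test, which was fitted to all 26146 genes with at least 5 reads. None of the 30 genes was called in any of the 3 comparisons. For CS vs. Baseline 0 of 30 were called against 2.82% of all genes, for pVAD vs. CS 0 of 30 against 2.43%, and for pVAD vs. Baseline 0 of 30 against 0.834%. At an unadjusted p below 0.05 without the fold threshold, edgeR also gave 0 of 30 in each comparison, against 3.09%, 2.66% and 0.872% of all genes, and DESeq2 called 0 of 30 in each. No gene of the whole table had an adjusted p below 0.05 in edgeR. In none of the 30 did the libraries of both time points fall into separate ranges, which 0.21%, 0.233% and 0.0688% of all genes did in the same order of comparisons.

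The sizes of the changes were small or poorly determined. In CS vs. Baseline, 12 genes were above and 18 below, with log2 changes from -0.82 (KLKB1) to 0.67 (ADAMTS13) and a median of -0.08 against -0.0049 for all genes. In pVAD vs. CS, 14 were above and 16 below, from -0.65 (F7) to 0.90 (KLKB1), with a median of -0.02 against 0.02. In pVAD vs. Baseline, 14 were above and 16 below, from -0.38 (F7) to 0.61 (F10), with a median of -0.01 against 0.01. The comparisons share libraries, so their values are given side by side and are not independent. The 95% interval of the change stayed within 2-fold in both directions for 17, 20 and 22 of the 30 genes in the same order, and it reached past 2-fold for the remaining 13, 10 and 8. The smallest p was 0.0885 (PLG) in CS vs. Baseline, 0.103 (KLKB1) in pVAD vs. CS and 0.0810 (F10) in pVAD vs. Baseline, all unadjusted and from edgeR.

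**Figure D2:**
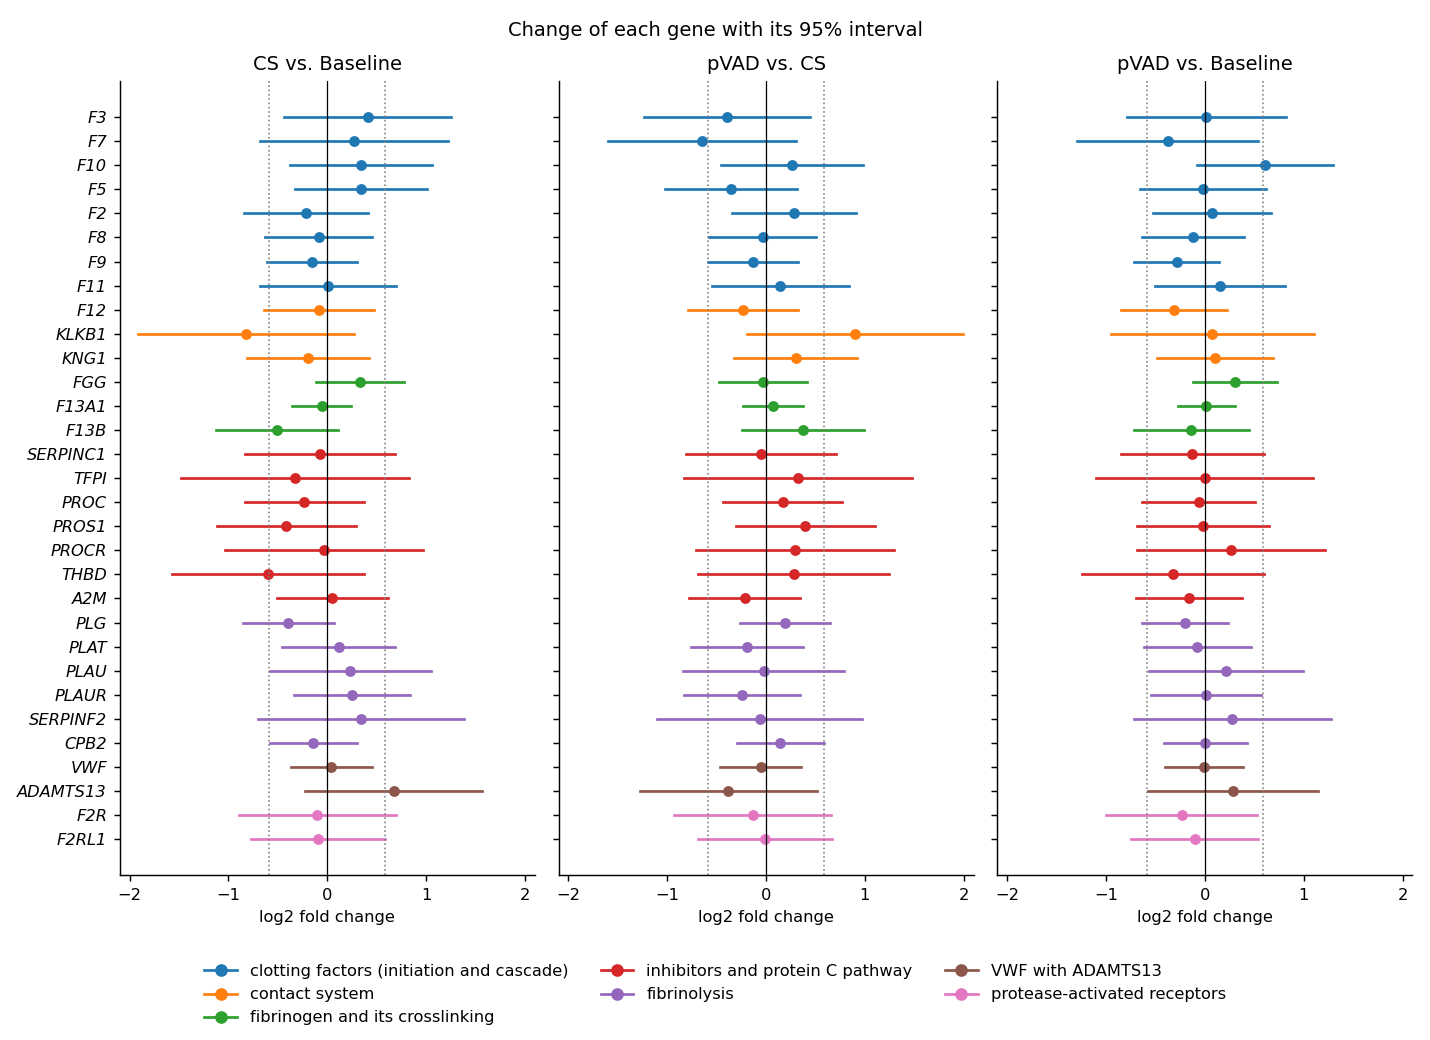
Log2 fold change of each of the 30 genes and VWF (points) with its 95% interval (bars) in the 3 comparisons, colored by role, from edgeR; dotted lines mark a 1.5-fold change. The interval of each gene includes 0 in each comparison, and the points range from -0.82 to 0.90.

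Among the 8 clotting factors, 5 were above and 3 below in CS vs. Baseline, with log2 changes from -0.21 to 0.41, none of which passed the test. F5 encodes factor V, the cofactor with which factor X activates prothrombin, and had the highest mean level in this role. At Baseline the F5 level ran from 42.5 CPM over a median of 65.4 to 94.2 CPM. CS 1 to CS 5 had 129.9, 49.7, 82.6, 128 and 39.3 CPM, and under pVAD support the range was 33.4 to 121 CPM with a median of 61.4. CS 1 and CS 4 were above all Baseline libraries and CS 5 was below all of them, so the groups overlapped widely. The means were 67.9 ± 21.0 (SD, n = 6), 86.0 ± 42.5 (n = 5) and 67.1 ± 31.0 CPM (n = 6), and the log2 change was 0.34 ± 0.32 (SE) in CS vs. Baseline and -0.36 ± 0.32 in pVAD vs. CS. For the genes that follow, ± likewise stands for the SD of levels, given in the order Baseline, CS and pVAD, and for the SE of log2 changes.

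F3, F7 and F10 act at the start of clotting, and none of them passed the test. F3 had 2.07 to 4.70 CPM at Baseline, 10.3, 3.35, 3.64, 3.28 and 3.91 CPM in CS 1 to CS 5, and 1.33 to 6.32 CPM under pVAD support. Only CS 1 was above all Baseline and pVAD libraries. The log2 change of F3 was 0.41 ± 0.41 in CS vs. Baseline and -0.40 ± 0.41 in pVAD vs. CS, and without CS 1 these became -0.060 and 0.074. F10, the gene of the protease that cleaves prothrombin, had a mean of 4.70 ± 1.81 CPM at Baseline, 5.97 ± 1.64 CPM in CS and 7.16 ± 3.25 CPM under pVAD support. It was higher under pVAD support than at Baseline in 5 of 6 pigs, and its levels ran from 2.65 over a median of 4.41 to 8.08 CPM at Baseline and from 3.05 over a median of 6.29 to 11.6 CPM under pVAD support. Only pVAD 1 (11.6 CPM) and pVAD 2 (10.3 CPM) were above all Baseline libraries. The other pVAD libraries, among them the lowest, from pig 6, lay within the Baseline range. The log2 change of F10 was 0.61 ± 0.33 in pVAD vs. Baseline, which did not pass the test, and F10 passed both thresholds without Baseline 1 (0.83), without pVAD 6 (0.76), without CS 4 and pVAD 6 together (0.76) or without both libraries of pig 6 (0.73). The change was smaller without pVAD 1 (0.41), pVAD 2 (0.48) or Baseline 2 (0.49), and it did not pass there. F7, the gene of the protease that works in complex with tissue factor, was lower under pVAD support than in CS in 5 of 5 pigs. How many of all genes had 1 direction in every pig was not counted. Its CS levels were 9.02, 5.05, 3.47, 5.46 and 3.65 CPM, and those under pVAD support ran from 0.788 over a median of 3.13 to 6.98 CPM, which overlapped. The log2 change was -0.65 ± 0.46 and passed both thresholds when pVAD 1 was left out (-0.99). It was -0.37 without CS 1, -0.45 without both libraries of pig 6 and -0.47 in the fit that also held the pig, none of which passed. Pig 6 had the lowest pVAD level of F7 and has no CS library in use.

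F2, the gene of prothrombin, F8 and F9, whose proteins are missing in hemophilia A and B, and F11 (factor XI) did not pass the test in any comparison. Their means stayed between 6.51 and 7.93 CPM for F2, 9.72 and 10.6 CPM for F8, 10.6 and 13 CPM for F9, and 5.86 and 6.54 CPM for F11 over the 3 time points. For each of these 4 genes the 95% interval of the change included 0 in every comparison.

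The contact system, in which factor XII and plasma kallikrein activate each other on charged surfaces and kallikrein frees bradykinin from kininogen, had 3 genes with reads. All 3 were below Baseline in CS, with log2 changes from -0.82 to -0.08, and none passed the test. F12 (factor XII) ran from 5.01 over a median of 14.2 to 18.7 CPM at Baseline and from 7.09 over 11 to 12.3 CPM under pVAD support. In CS it had 16.4, 10.5, 12, 10.7 and 10.6 CPM, so that CS 1 stood above the other 4. The log2 change of F12 was -0.31 ± 0.26 in pVAD vs. Baseline. Without Baseline 6, the lowest Baseline library, its unadjusted p in edgeR was below 0.05 there, and it stayed below the fold threshold. The share of all genes at that p in that fit was not counted.

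KLKB1, the gene of plasma prekallikrein, showed the widest change and the widest error of the contact genes. Its level ran from 2.20 over a median of 5.01 to 7.25 CPM at Baseline, was 1.47, 3.30, 2.38, 1.09 and 5.39 CPM in CS 1 to CS 5, and ran from 0.636 over 4.92 to 11.9 CPM under pVAD support. CS 1, CS 3 and CS 4 were low, yet CS 5 was above the Baseline median and pVAD 1 was the lowest library of all. The log2 change was -0.82 ± 0.53 in CS vs. Baseline and 0.90 ± 0.53 in pVAD vs. CS, although only 2 of 5 pigs had a higher level under pVAD support than in CS. Leaving out CS 5 turned both into calls (-1.23 and 1.30), and leaving out pVAD 1 did so for the second (1.13). The highest level, 11.9 CPM, was that of pVAD 6, whose pig has no CS library in use, and the change in pVAD vs. CS was 0.46 without pVAD 6 and 0.46 with the pig as a block. KNG1 (kininogen) had means of 7.19 ± 1.59, 6.28 ± 2.23 and 7.75 ± 2.21 CPM, with the lowest value of 2.73 CPM in CS 4.

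Of the fibrinogen genes, FGG, which encodes the gamma chain, was the only one with reads, and it was also the gene with the most reads per kb of span. FGG was higher in CS than at Baseline in 5 of 5 pigs, and the share of all genes with 1 direction in every pig was not counted. Its level ran from 8.67 over a median of 13.9 to 19.8 CPM at Baseline and from 11.8 over 16.8 to 23.4 CPM under pVAD support. CS 1 to CS 5 had 14.8, 18.9, 18.5, 18.5 and 18.3 CPM. Baseline 6, from the pig with no CS library in use, was above all CS libraries, so the ranges overlapped. The log2 change was 0.33 ± 0.21 in CS vs. Baseline and 0.30 ± 0.20 in pVAD vs. Baseline. With the pig as a block, FGG and PLG had an unadjusted p below 0.05 in CS vs. Baseline in edgeR, and both stayed below the fold threshold. The share of all genes at that p in this fit was not counted, and 688 of all genes passed both thresholds in it. In the same comparison without the block, the edgeR p of FGG was also below 0.05 without Baseline 6 or without pig 6. That of PLG was below 0.05 without CS 4, alone or together with pVAD 6. Neither gene passed the fold threshold there, and the share of all genes at that p was not counted.

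F13A1, the gene of the factor XIII A subunit that crosslinks fibrin, had the smallest error of the 30 genes. It ran from 58.3 over a median of 69.8 to 77.2 CPM at Baseline and from 59.9 over 71.2 to 75.7 CPM under pVAD support. The CS libraries had 65.7, 70.8, 72.9, 53.2 and 66.2 CPM. CS 4 was the lowest of all 17 libraries and the other 16 lay between 58.3 and 77.2 CPM. The log2 change in CS vs. Baseline was -0.055 ± 0.14, with a 95% interval from 0.781-fold to 1.19-fold, so a 1.5-fold change lay outside the interval. F13B, the gene of the carrier subunit, had means of 7.51 ± 1.55, 5.26 ± 2.35 and 6.83 ± 1.45 CPM. In CS its level was 3.06, 5.86, 5.19, 3.32 and 8.88 CPM, and CS 5 alone was above the Baseline median of 7.52 CPM. Its log2 change was -0.51 ± 0.30 in CS vs. Baseline and 0.37 ± 0.30 in pVAD vs. CS, which became calls at -0.78 and 0.65 without CS 5.

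**Figure D3:**
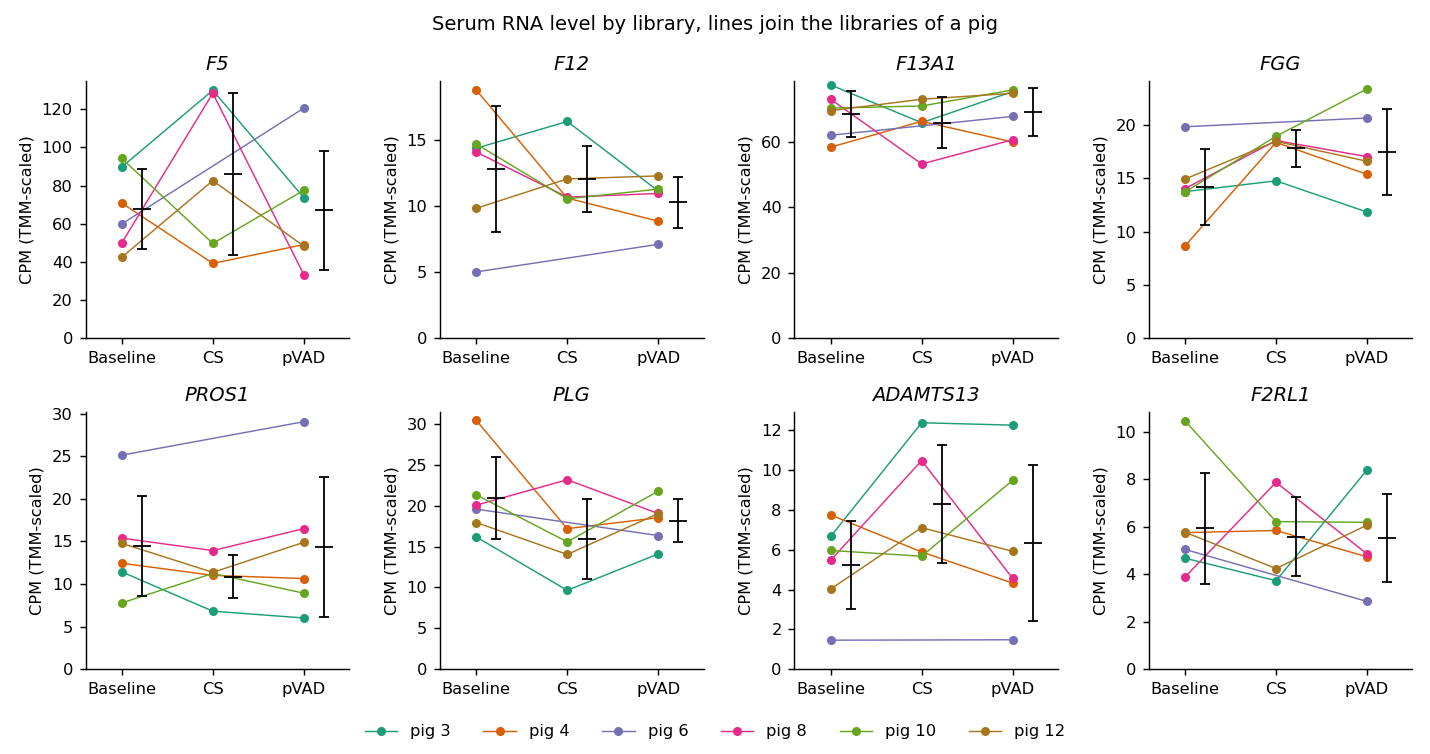
Level in CPM (vertical axes from 0) by time point for the most read genes of each role and FGG; colored points are libraries, lines join the libraries of a pig, and the black marks show mean ± SD. F13A1 stays between 53.2 and 77.2 CPM, whereas PROS1 and ADAMTS13 differ more between pigs, with pig 6 at 25.1 and 29.1 CPM and at 1.46 and 1.48 CPM.

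Of the 7 inhibitor and protein C pathway genes tested, 6 were below Baseline in CS and 1 above, with log2 changes from -0.60 to 0.05, and none passed the test. PROS1 encodes protein S, the cofactor of activated protein C. Its level ran from 7.78 over a median of 13.6 to 25.1 CPM at Baseline and from 6.02 over 12.8 to 29.1 CPM under pVAD support. The 5 CS libraries had 6.81, 11.2, 11.4, 13.9 and 11 CPM and all lay inside or below the Baseline range. The log2 change of PROS1 was -0.42 ± 0.34 in CS vs. Baseline and 0.40 ± 0.34 in pVAD vs. CS. Both of the highest libraries came from pig 6, which has no CS library in use, and without pig 6 the changes were -0.19 and 0.069. Of the 5 pigs with both libraries, 2 had a higher level under pVAD support than in CS. With the pig as a block they were -0.16 and 0.048.

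TFPI, the inhibitor of the tissue factor and factor VII complex, had the largest standard errors of the 30 genes and ranged from 1.23 to 13.6 CPM. Its means were 5.55 ± 3.66, 4.43 ± 3.20 and 5.58 ± 4.35 CPM. THBD (thrombomodulin, the receptor through which thrombin activates protein C) had means of 4.38 ± 2.53, 2.86 ± 1.40 and 3.48 ± 1.42 CPM and a log2 change of -0.60 ± 0.47 in CS vs. Baseline. The lowest THBD level, 0.683 CPM, was in CS 4. SERPINC1 (antithrombin) stayed between means of 4.33 and 4.75 CPM, PROC (protein C) between 8.97 and 10.6 CPM, PROCR (the endothelial protein C receptor) between 2.97 and 3.61 CPM, and A2M (alpha-2-macroglobulin, a broad protease inhibitor) between 9.28 and 10.8 CPM.

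In fibrinolysis, 4 of 6 genes were above and 2 below Baseline in CS, with log2 changes from -0.39 to 0.34, and none passed the test. PLG, the gene of plasminogen, was lower in CS than at Baseline in 4 of 5 pigs and had the smallest p of the list in that comparison. Its level ran from 16.2 over a median of 19.8 to 30.4 CPM at Baseline and from 14.1 over 18.8 to 21.8 CPM under pVAD support. CS 1 to CS 5 had 9.65, 15.6, 14.0, 23.2 and 17.2 CPM. Of these, 3 were below all Baseline libraries, but CS 4 was above 5 of the 6. The log2 change was -0.39 ± 0.22 in CS vs. Baseline, at most a 1.05-fold increase or a decrease to 0.555-fold by its 95% interval, and 0.19 ± 0.22 in pVAD vs. CS.

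The plasminogen activators and their regulators did not pass the test either. PLAT (tissue-type plasminogen activator) had means of 11.5 ± 2.96, 12.5 ± 6.03 and 10.9 ± 2.51 CPM, and its highest library was CS 4 with 23.1 CPM. PLAU (urokinase) had means of 3.17 ± 2.09, 3.70 ± 0.405 and 3.63 ± 0.947 CPM, and PLAUR, its receptor, 7.42 ± 1.79, 8.85 ± 1.75 and 7.47 ± 2.69 CPM. SERPINF2 encodes alpha-2-antiplasmin, the main inhibitor of plasmin, and ranged over the libraries from 0.492 to 13.1 CPM. CPB2, whose product removes the lysines by which plasminogen binds to fibrin, was more even, with means of 14.5 ± 3.35, 13.2 ± 2.82 and 14.6 ± 1.37 CPM.

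ADAMTS13 cleaves VWF, the multimeric protein that tethers platelets to injured vessel wall. ADAMTS13 had 1.46 to 7.74 CPM at Baseline with a median of 5.71, and 1.48 to 12.2 CPM under pVAD support with a median of 5.24. In CS it had 12.4, 5.67, 7.10, 10.5 and 5.88 CPM, so CS 1 and CS 4 were above all Baseline libraries and the other 3 were within their range. The log2 change was 0.67 ± 0.43 in CS vs. Baseline and -0.38 ± 0.43 in pVAD vs. CS. The lowest Baseline and pVAD levels, 1.46 and 1.48 CPM, were both those of pig 6, which has no CS library in use. Of the 5 pigs with both libraries, 3 had a higher level in CS than at Baseline. Under pVAD support, 1 of 5 had a higher level than in CS. VWF ran from 164 over a median of 251 to 289 CPM at Baseline and from 161 over 239 to 307 CPM under pVAD support. Its CS libraries had 349, 211, 270.3, 184 and 244 CPM, of which only CS 1 was outside the Baseline range. Its log2 change in CS vs. Baseline was 0.043 ± 0.20, and the sign turned without CS 1 (-0.10), without Baseline 6 (-0.049) or with the pig as a block (-0.069). The gene model behind the VWF row also takes in the neighboring gene ANO2, so its reads cannot be assigned to VWF alone.

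The protease-activated receptors, through which thrombin and other proteases signal to cells, were both slightly below Baseline in CS. F2RL1, the receptor that trypsin-like proteases cleave, ran from 3.89 over a median of 5.40 to 10.5 CPM at Baseline, had 3.73, 6.22, 4.24, 7.88 and 5.85 CPM in CS 1 to CS 5, and ran from 2.86 over 5.47 to 8.40 CPM under pVAD support. The ranges overlapped almost wholly. Its log2 change in CS vs. Baseline was -0.090 ± 0.33, and the sign turned without Baseline 2 (0.15) or CS 1 (0.025). F2R, a thrombin receptor, had means of 4.68 ± 2.58, 4.36 ± 1.33 and 3.96 ± 1.06 CPM.

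**Figure D4:**
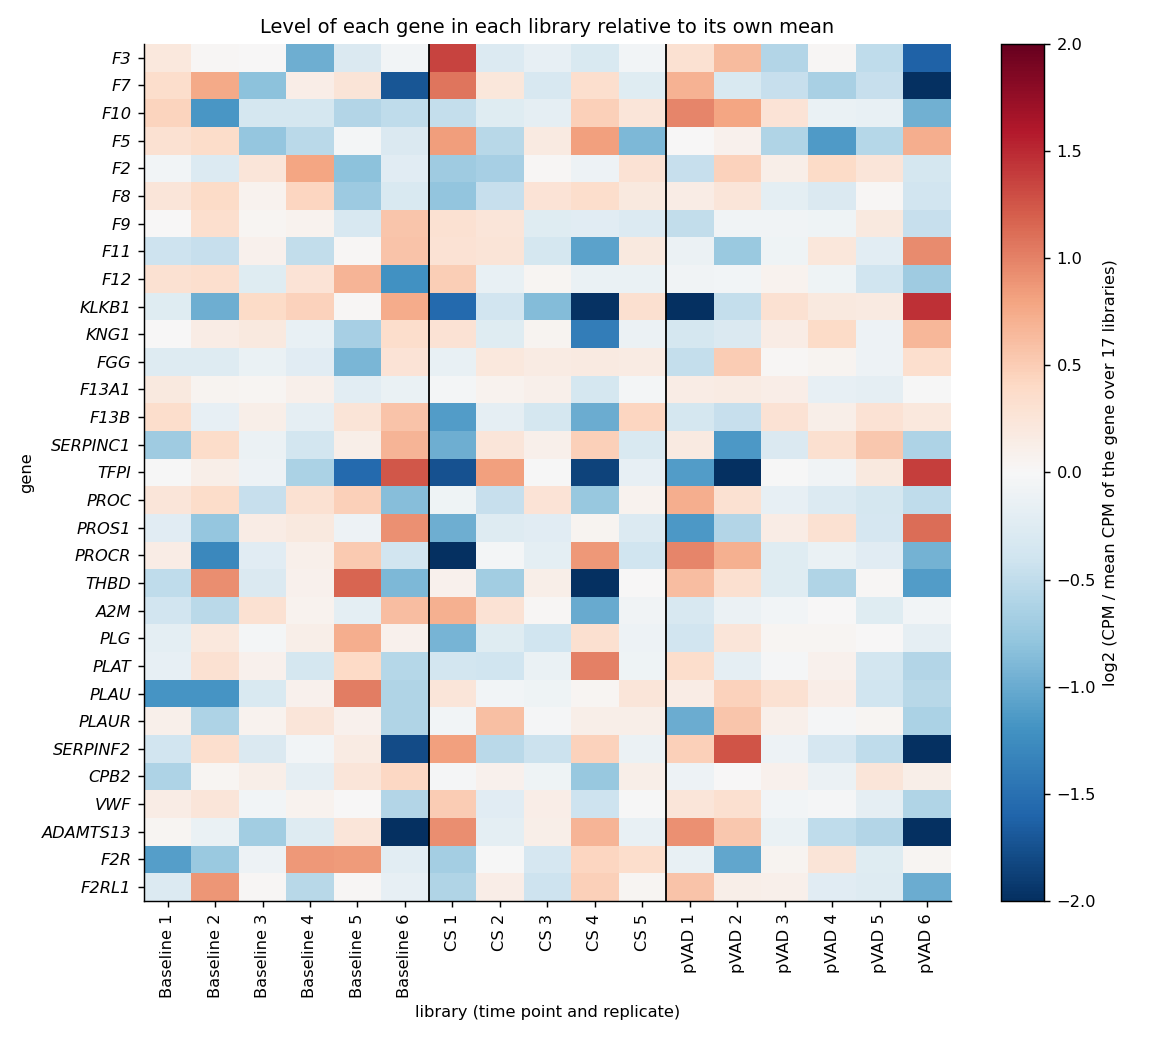
Level of each of the 30 genes and VWF (rows) in each of the 17 libraries (columns, grouped by time point), as log2 of its CPM over its own mean; red is above and blue below the mean. Baseline 6 and pVAD 6, both from pig 6, are the darkest blue columns for F7, SERPINF2 and ADAMTS13 and red for TFPI and PROS1.

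Some of the genes differed between animals. In a fit with both time point and pig, a test added after the data had been seen, 4 of the 30 genes (13.3%) differed between pigs at an adjusted p below 0.05 in edgeR, against 13.4% of all genes, so the share among these genes was near that of the whole table. They were PROS1 (adjusted p = 0.00523), ADAMTS13 (0.0196), F7 (0.0277) and SERPINF2 (0.0441), and the value of VWF was 0.0503. Pig 6 stood apart in each of them. Its 2 libraries had 1.32 and 0.788 CPM of F7, against 2.45 to 9.02 CPM in the 15 libraries of the other pigs. They had 1.59 and 0.492 CPM of SERPINF2 against 3.80 to 13.1 CPM, and 1.46 and 1.48 CPM of ADAMTS13 against 4.02 to 12.4 CPM. PROS1 was at 25.1 and 29.1 CPM in pig 6 against 6.02 to 16.5 CPM elsewhere. Both libraries of pig 6 were below all 15 others for 5 of the 30 genes (F7, F12, PLAT, SERPINF2 and ADAMTS13), against 15.3% of all genes, and above all others for 4 (F11, KLKB1, TFPI and PROS1), against 14% of all genes. Of the 8 cell type marker lists, 3 also set pig 6 apart. The 7 of 10 monocyte and macrophage markers with reads (LYZ listed at 0) summed to 173 and 183 CPM in its libraries and to at most 150 CPM in the others. The 5 of 10 neutrophil markers with reads (ELANE listed at 0) summed to 23.6 and 16.2 CPM against at least 25.5 CPM, and the 10 of 10 smooth muscle and fibroblast markers to 94.4 and 100 CPM against at least 118 CPM. Their part in these differences was not tested. Without pig 6, without Baseline 6 or without pVAD 6, 0 of the 30 genes differed between pigs at an adjusted p below 0.05 (1, 5 and 3 at an unadjusted p below 0.05). The share of all genes at an adjusted p below 0.05 fell as well, from 13.4% to 0.606%, 3.15% and 4.11% in the same order. Their share at an unadjusted p below 0.05 was not counted. Without pVAD 1, PROS1 alone differed between pigs, against 8.76% of all genes, and without CS 3, PROS1 and ADAMTS13 did, against 11.5%. SERPINF2 no longer passed with RLE size factors, and of the 17 fits that left out 1 library it passed in 5 (without Baseline 1, CS 1, CS 2, CS 4 or pVAD 4). Any processing step that followed the animals cannot be told apart from the animal itself.

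A further 48 genes of the pathway were listed, such as the plasminogen activator inhibitors, vitamin K enzymes and plasminogen receptors. Of these, 41 had a row and 36 enough reads. The vitamin K enzymes GGCX, VKORC1 and VKORC1L1 and the plasminogen receptor PLGRKT were not among the 36 and were not tested. None of the 36 was called in either direction in edgeR in any comparison. Their median log2 change was 0.17 in CS vs. Baseline, -0.04 in pVAD vs. CS and 0.08 in pVAD vs. Baseline, against -0.0049, 0.02 and 0.01 for all genes. At an unadjusted p below 0.05 there were 0, 0 and 1 of the 36, against 3.09%, 2.66% and 0.872% of all genes, and the 1 was S100A10, part of a cell surface receptor for plasminogen, at 5.90 ± 1.13 CPM at Baseline and 8.70 ± 3.22 CPM under pVAD support (unadjusted p = 0.0430 in edgeR). Its log2 change of 0.56 ± 0.26 stayed below the fold threshold. DESeq2 also called 0 of the 36 in each comparison, and with the pig as a block edgeR called 1, KLK1 in pVAD vs. CS, where the same fit called 489 of all genes.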

How the data were processed

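The authors deposited raw counts of reads per gene for 18 serum libraries, made from total RNA with a low-input kit and sequenced paired-end, trimmed with Trim Galore 0.4.4, aligned with STAR 2.4.2a and counted with the R package Rsubread under R 3.6.0 according to the submitters' processing notes and methods. The genome build and the strand setting are not given in the sources used here. The 35 names, the further lists and the tests were chosen with earlier results of these data known.

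The raw counts of 17 libraries (18229243 to 71488943 reads) were scaled by TMM factors and tested with edgeR 4.0.16 in R 4.3.3 on genes with at least 5 reads in total, with no term beside the time point. A call needed a fold change over 1.5 and an unadjusted p below 0.05, and p-values were also adjusted over all 26146 genes by the Benjamini-Hochberg method. Intervals are at 95%. All 34 genes with a row are named, by role, with values in every library for the gene of highest mean CPM in each role. The remaining genes shown in full were chosen after their values were seen. The edgeR tests were checked on simulated counts with changes larger than the 1.5-fold threshold. That check does not tell how often a 1.5-fold change in these genes would be found.

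Alternatives were DESeq2 1.42.0, RLE size factors, other filters and thresholds, only the time points compared, all 18 libraries, mitochondrial and rRNA genes removed, the pig as a block and each library left out. The pairing by pig comes from the deposited sample sheet. Deviations from the time point means correlated with a median r of 0.128 in 16 pairs of libraries from the same pig (-0.232 to 0.576) and of -0.0198 in 80 pairs from different pigs. The planned exact permutation tests of called genes were not run, since none was called.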

Additional observations from a re-analysis of the deposited data

Results flagged for a closer look

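Of 93 sets of libraries examined (31 genes, VWF included, at 3 time points), 10 held a library far from the others by Dixon's criterion. Its cutoffs give about 1 in 20, or 4.65, for normally distributed values, and CPM were used without a log. The sets also share libraries, so 10 against 4.65 is no test of an excess. In CS 1, F3 was high at 10.3 CPM, F12 was high at 16.4 CPM and FGG was low at 14.8 CPM. In CS 4, PLAT was high at 23.1 CPM and CPB2 was low at 8.33 CPM, and in CS 2 PLAUR was high at 11.9 CPM. At Baseline, F10 was high in replicate 1 at 8.08 CPM, F2RL1 in replicate 2 at 10.5 CPM, PLG in replicate 5 at 30.4 CPM and TFPI in replicate 6 at 12.4 CPM.

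CS replicate 6, which the comparisons leave out, held reads of 3 of these 31 genes above the limit that a count of 0 allows (3 reads). It had 936 reads of F13A1, 262 of F5 and 649 of VWF, 1 of KNG1 and none of the other genes.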

How the results depend on the processing

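No gene of the list was called in any comparison with DESeq2, RLE size factors, other filters, a 2-fold threshold, the time points compared alone, all 18 libraries, mitochondrial and rRNA genes removed, or the pig as a block. Leaving out 1 library gave 0 to 2 calls in CS vs. Baseline (F13B and KLKB1 lower without CS replicate 5), 0 to 2 in pVAD vs. CS (F13B and KLKB1 higher without CS replicate 5, F7 lower and KLKB1 higher without pVAD replicate 1) and 0 to 1 in pVAD vs. Baseline (F10 higher without Baseline replicate 1 or pVAD replicate 6). F10 was also the 1 call in pVAD vs. Baseline without CS replicate 4 and pVAD replicate 6 together and without pig 6, both added after the data had been seen. The same fits called 978 of all genes (738 with every library), 960 and 835 (635), and 225, 256, 279 and 267 (218), in that order. Of 672 values of 24 log2 changes, 651 kept their direction and their side of the thresholds, 10 became calls and 11 changed sign. In CS vs. Baseline, F3 became -0.060 without CS replicate 1 and ranged up to 0.52 with another library left out, and in pVAD vs. CS it ranged from -0.61 to 0.074. F13A1 became 0.85 with all 18 libraries, 0.012 without CS replicate 4 and pVAD replicate 6 together, and ranged from -0.097 to 0.012 with 1 library left out. VWF became -0.069 with the pig as a block, -0.049 without Baseline replicate 6 or without pig 6, and ranged from -0.10 to 0.14 with 1 library left out. F2RL1 ranged from -0.24 to 0.15 with 1 library left out. Genes differing between pigs numbered 0 to 4 with 1 library left out, and 0 without pig 6 or without CS replicate 4 and pVAD replicate 6 together. The causes were not tested.

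Over all genes, the calls moved by more than 1.5 times from 738 to 486 without CS replicate 1 in CS vs. Baseline, from 635 to 388, 999 and 960 without CS replicate 1, 2 or 5 in pVAD vs. CS, and from 218 to 110 with edgeR's own low-count filter and 422 without Baseline replicate 6 in pVAD vs. Baseline. Each of the 30 genes had at least 10 reads in every library, and the 95% interval still reached past 2-fold for 13 of them when CS was set against Baseline.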

Other observations

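FGA, FGB, SERPIND1 and TFPI2 were listed at 0 in every library while FGG, the partner of FGA and FGB in fibrinogen, had the most reads per kb of the genes tested. In RefSeq, the span of SERPIND1 overlaps PI4KA and that of TFPI2 overlaps GNGT1, whereas FGA and FGB overlap no other gene. Of 5505 protein-coding genes whose span another RefSeq gene overlaps, 590 (10.7%) were listed at 0, and of 11399 without such a neighbor 620 (5.44%) were.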
